A study of Homo sapiens with 6 samples.

Results

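The cytosolic ribosomal protein genes were followed in HEYA8, an established human line of ovarian carcinoma, low grade serous according to the labels. Members were the genes of the deposited table whose symbols have the form of a cytosolic ribosomal protein (RPL, RPS, RPLP0 to RPLP2 and RPSA), without the RPS6K kinases. This gave 79 of 20061 rows, 49 for the large (60S) and 30 for the small (40S) subunit, and 77 of them had been tested by the authors. Every culture expressed a short hairpin RNA (shRNA) stably from a lentivirus and was kept in puromycin, with no other treatment. The shETS1 group (3 samples) carried a hairpin against ETS1, an ETS family transcription factor, and the shLuciferase group (3 samples) a hairpin against luciferase, a gene that human cells lack. The labels give neither the number of hairpins per target nor whether a group's samples were grown separately, and the authors' p-values may therefore measure technical spread only. The table holds 1 value per gene and group, in FPKM, a fragment count divided by transcript length and sequencing depth, so no SD between samples can be given and depth is unknown.

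Ribosomal proteins coat the ribosomal RNA of both subunits, and nearly all are present as a single copy per ribosome. Cells therefore make them in matched amounts, chiefly by translating their mRNAs together. These mRNAs begin with a terminal oligopyrimidine (TOP) tract, a cytosine followed by further pyrimidines, through which mTOR signalling and the protein LARP1 set their translation. Growing cancer cells spend a large part of their mRNA on this class, and its promoters are known to bind ETS family factors such as GABP.

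The sequence shared by the members was read at the annotated transcript starts in RefSeq (GRCh38.p14). A start was counted as a TOP start where a C at the first transcribed base was followed by at least 4 pyrimidines. Of the 79 members, 63 had an entry, and 46 of these (73.0%) had a TOP start at 1 or more of their entries, against 1404 of 27305 symbols (5.14%) in the whole table. Counted by entry, 46 of 78 starts of members (59.0%) and 1429 of 35116 starts in all (4.07%) did. Allowing the tract to begin up to 5 bases to either side, 53 of 63 members (84.1%) and 25.2% of all symbols had one. The windows run from 15 bases before the annotated start to the 15th transcribed base, 5′ to 3′, and capitals mark the unbroken pyrimidine run that begins at the start. The first 3 belong to very abundant members, the next 3 to members with higher and the next 4 to members with lower FPKM in shETS1, and the last to the member with the lowest level among those tested.
RPL41: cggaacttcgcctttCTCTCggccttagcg (chr12:56116618-56116647, plus strand)
RPL35: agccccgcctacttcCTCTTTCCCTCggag (chr9:124861943-124861972, minus strand)
RPL37A: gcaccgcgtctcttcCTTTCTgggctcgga (chr2:216498829-216498858, plus strand)
RPL39: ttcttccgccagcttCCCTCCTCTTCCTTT (chrX:119791616-119791645, minus strand)
RPS3A: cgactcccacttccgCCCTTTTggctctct (chr4:151099613-151099642, plus strand)
RPS18: cgcgtcacttccgctCTCTCTTCCacagga (chr6:33272060-33272089, plus strand)
RPLP2: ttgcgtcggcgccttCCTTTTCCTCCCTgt (chr11:809952-809981, plus strand)
RPL36: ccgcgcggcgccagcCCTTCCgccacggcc (chr19:5690280-5690309, plus strand)
RPS15: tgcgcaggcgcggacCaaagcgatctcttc (chr19:1438381-1438410, plus strand)
RPS28: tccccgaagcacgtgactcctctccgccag (chr19:8321481-8321510, plus strand)
RPSA: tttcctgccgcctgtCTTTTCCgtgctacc (chr3:39406705-39406734, plus strand)
Of these 11 starts, RPS15 and RPS28 had no tract at the annotated base. In RPL39 the run filled the whole 15-base window, and in RPL41 it was 5 bases long.

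The target and the cell line were checked before the members. ETS1 stood at 17.9 FPKM in shETS1 and 41.4 FPKM in shLuciferase, and the authors' deposited table gives it a q-value of 0.00964. Among epithelial markers, the keratin genes KRT7, KRT8 and KRT18 were at 910, 1288 and 1498 FPKM in shETS1 and at 1187, 1913 and 2044 FPKM in shLuciferase, whereas the E-cadherin gene CDH1 was listed at 0 in shETS1 and at 0.00572 FPKM in shLuciferase, and EPCAM at 1.82 FPKM in shETS1 and 1.71 FPKM in shLuciferase. Among 3 ovarian lineage markers, PAX8 was at 76.8 FPKM in shETS1 and 79.7 FPKM in shLuciferase, and WT1 was low at 3.13 FPKM in shETS1 and 3.58 FPKM in shLuciferase. SOX17 was at 2.38 FPKM in shETS1 and 1.15 FPKM in shLuciferase, a log2 ratio of 1.05, for which the authors' deposited table gives p = 0.00145 and q = 0.110. The leukocyte genes PTPRC and TYROBP and the fibroblast genes COL3A1 and DCN were listed at 0 in both groups. A listed 0 need not mean that a gene was silent, since BOP1, a ribosome biogenesis factor that growing cells need, was also listed at 0 in both groups and was not tested.

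No ribosomal protein gene passed a q-value limit of 0.05. None of the 77 tested members reached q = 0.05 or less in the authors' deposited table, where 97 of 11952 tested genes (0.812%) did, and none had an unadjusted p under 0.05, where 6.94% of tested genes did. In the authors' deposited table RPSA had the smallest p-value of any member, 0.156, followed by RPL39 with 0.172. The log2 ratio of the group FPKM values, shETS1 over shLuciferase, had a median of 0.04 over the 77 members and 0.02 over the 10676 tested genes averaging 1 FPKM or more. It was above 0 for 50 members (64.9%), against 52.6% of those 10676 genes. A difference of at least 1.2-fold in either direction was seen in 8 members (10.4%), 5 higher and 3 lower in shETS1, against 34.0% of the 10676 genes. Because the RNA came from bulk cultures, fewer cells expressing a gene and less RNA per cell cannot be told apart in any of these values.

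Most tested genes are far less abundant than ribosomal protein genes, so the members were also set beside the abundant genes. The 71 tested members averaging 500 FPKM or more had a median log2 ratio of 0.03 and an SD across genes of 0.13. The 123 other tested genes at this level had a median of -0.06 and an SD of 0.20, and 45 of the 123 were above 0, compared with 45 of the 71 members. A difference of at least 1.2-fold was seen in 8.45% of the 71 members and in 11.4% of the 123 other genes. These sets were not matched on the G and C (GC) content of their transcripts. Median GC content was 50.5% for the 71 members and 54.9% for the 115 of the 123 other genes with a value. Log2 ratios were lower at higher GC content, as described below. The part of GC content in the difference between these sets was not tested. None of the 194 abundant genes was called and 2 had an unadjusted p under 0.05, with at least a 1.57-fold difference each. The largest difference of any member was 1.44-fold. Only 4 genes averaging 100 FPKM or more were called, and the smallest difference among these was 1.83-fold. A p-value that misses the threshold does not show that the levels were equal.

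**Figure D1:**
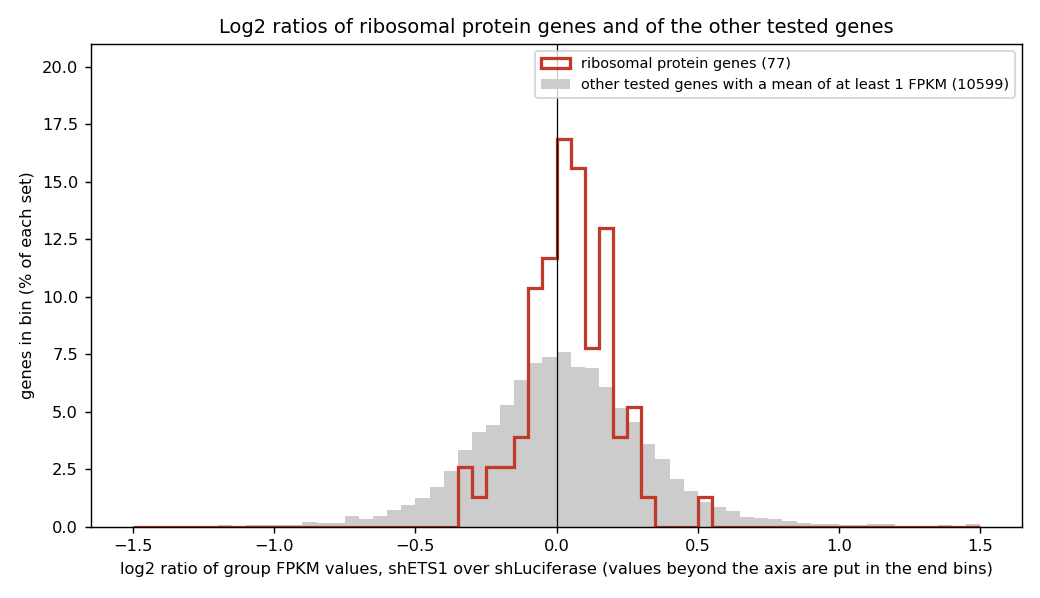
Share of genes (vertical axis, percent of each set) by log2 ratio of the group FPKM values, shETS1 over shLuciferase (horizontal axis, bins of 0.05). The red outline is the 77 tested ribosomal protein genes and the grey area the other tested genes with a mean of at least 1 FPKM. The members lie between -0.33 and 0.53 around a median of 0.04.

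Together the 79 members made up 32.8% of all summed FPKM in shETS1 and 31.8% in shLuciferase. The large subunit genes took 19.6% in shETS1 and 18.9% in shLuciferase, and the small subunit genes 13.2% in shETS1 and 12.9% in shLuciferase. The summed FPKM of the members was 238848 in shETS1 and 236391 in shLuciferase. Of the 50 rows with the highest means, 40 were members, and of the highest 100, 64 were. The authors' table marks GAPDH and VIM as having too much data, with GAPDH listed at 0 in both groups and VIM at 0 in shETS1 and 7171 FPKM in shLuciferase. VIM therefore enters the total of shLuciferase alone, also where the groups were rescaled to the same FPKM sum. Over the tested genes, which leave both out, the members took 32.9% in shETS1 and 32.2% in shLuciferase, a difference of 0.671 percentage points against 0.983 over all genes. Without members of uncertain locus the difference over all genes was 0.424 percentage points.

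Levels differed far more between members than between the groups. In both groups 56 of the 77 tested members lay between 1000 and 5000 FPKM, 8 lay above 5000 FPKM and 10 below 1000 FPKM. RPL41 was the most abundant member at 9043 FPKM in shETS1 and 9045 FPKM in shLuciferase. It encodes the smallest ribosomal protein, from a coding sequence of 75 nucleotides. RPS2, a protein near the mRNA entry of the small subunit, was at 7711 FPKM in shETS1 and 8499 FPKM in shLuciferase. RPL8, which lies close to the peptidyl transferase centre, was at 7700 FPKM in shETS1 and 8090 FPKM in shLuciferase. RPL35, at the rim of the exit tunnel, was at 7403 FPKM in shETS1 and 7514 FPKM in shLuciferase, and RPL37A at 6680 FPKM in shETS1 and 5989 FPKM in shLuciferase. Ranked by level, the members stood in nearly the same order in the groups, with a Spearman rho of 0.98 over 77 genes, which share the libraries and the annotation. Level and coding length had a rho of -0.14 over the same genes. Level was not compared with transcript length, by which FPKM is divided.

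**Figure D2:**
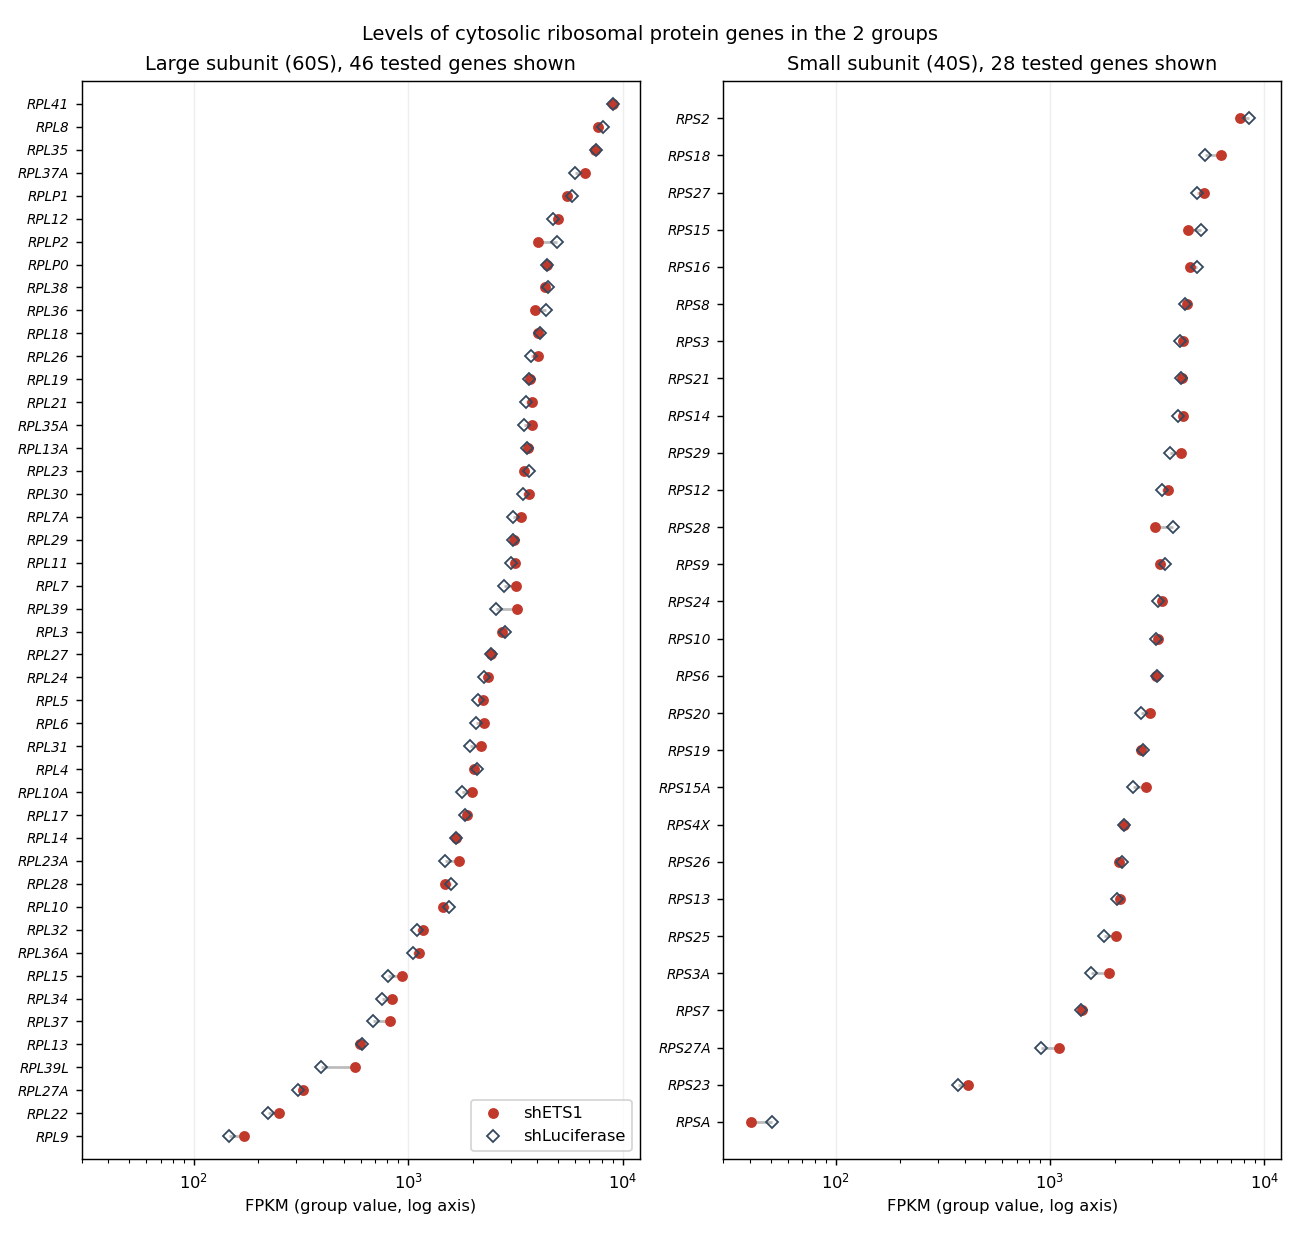
FPKM (horizontal log axis) of 74 of the 77 tested ribosomal protein genes, ordered by mean level, for the large subunit at left and the small subunit at right. Filled red circles are shETS1, open dark diamonds shLuciferase, and grey bars join the values of a gene. RPL41 lies highest at 9043 FPKM in shETS1 and 9045 FPKM in shLuciferase and RPSA lowest at 40.2 FPKM in shETS1 and 50.6 FPKM in shLuciferase, and the paired symbols lie close together.

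The large subunit had 31 of 47 tested members above 0 and a median log2 ratio of 0.06. Its stalk recruits the translation GTPases and is built of RPLP0 and of the acidic proteins RPLP1 and RPLP2. RPLP0 was at 4441 FPKM in both groups. RPLP1 was at 5525 FPKM in shETS1 and 5836 FPKM in shLuciferase. RPLP2 was at 4020 FPKM in shETS1 and 4958 FPKM in shLuciferase, a log2 ratio of -0.30 with a p-value of 0.272 in the authors' deposited table. The stalk genes thus ranged from equal values to the lowest ratio of the large subunit.

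RPL5 and RPL11 carry the 5S ribosomal RNA and, when free of the ribosome, bind the p53 regulator MDM2. RPL5 was at 2235 FPKM in shETS1 and 2115 FPKM in shLuciferase. RPL11 was at 3132 FPKM in shETS1 and 3005 FPKM in shLuciferase. Their log2 ratios, 0.08 and 0.06, were close to the median of the members. The deposited locus of RPL5 overlaps FAM69A, so some of its reads are uncertain.

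The 9 listed proteins that line or surround the peptide exit tunnel had a median log2 ratio of 0.11, and 7 of them were above 0. Their transcripts had a median GC content of 45.6%, against 49.9% for all 77 tested members. The deposited loci of RPL4, RPL17, RPL23A and RPL31 overlap those of other genes, so some of their reads are uncertain. RPL39, a small protein in the tunnel wall, was at 3226 FPKM in shETS1 and 2556 FPKM in shLuciferase, a log2 ratio of 0.34, for which the authors' deposited table gives a q-value of 0.992. RPL23A, which binds the signal recognition particle, was at 1722 FPKM in shETS1 and 1484 FPKM in shLuciferase. RPL22 was among the lowest members, at 249 FPKM in shETS1 and 222 FPKM in shLuciferase. RPL4 and RPL17, whose loops form the narrow part of the tunnel, had log2 ratios of -0.05 and 0.03. The tunnel members were thus spread from slightly below 0 to the second highest ratio of all members.

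Around the catalytic centre of the large subunit, RPL3 was at 2739 FPKM in shETS1 and 2838 FPKM in shLuciferase, and RPL10 at 1460 FPKM in shETS1 and 1554 FPKM in shLuciferase. With RPL8 these genes had log2 ratios of -0.05, -0.09 and -0.07. RPL3 and RPL10 were added for their roles after their values were seen. The deposited locus of RPL10 overlaps DNASE1L1 and TAZ. The transcript GC content of RPL3, RPL10 and RPL8 was 55.7%, 52.2% and 61.8%, against a median of 49.9% for all tested members. Among the other large subunit genes, RPL37 was at 823 FPKM in shETS1 and 685 FPKM in shLuciferase, and RPL15 at 938 FPKM in shETS1 and 807 FPKM in shLuciferase. Their log2 ratios of 0.26 and 0.22 were among the 8 highest of the members. RPL36, at 3896 FPKM in shETS1 and 4397 FPKM in shLuciferase, was among the 8 lowest with -0.17.

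The small subunit had 19 of 30 tested members above 0 and a median log2 ratio of 0.03. The 9 listed proteins around the decoding centre and the mRNA channel had 4 members above 0 and a median of -0.05. RPS15, near the decoding site, was at 4403 FPKM in shETS1 and 5084 FPKM in shLuciferase. RPS28, at the mRNA exit, was at 3097 FPKM in shETS1 and 3765 FPKM in shLuciferase, a log2 ratio of -0.28 with a p-value of 0.287 in the authors' deposited table. RPS23, which reaches into the decoding centre, was at 415 FPKM in shETS1 and 371 FPKM in shLuciferase. RPS3, at the mRNA entry, was at 4168 FPKM in shETS1 and 4059 FPKM in shLuciferase. RPS27A, made as a fusion with ubiquitin, was at 1097 FPKM in shETS1 and 908 FPKM in shLuciferase. Its log2 ratio of 0.27 lay at the upper end of the members, whereas those of RPS15 and RPS28 lay at the lower end.

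Among the remaining small subunit genes, RPS18 was at 6291 FPKM in shETS1 and 5257 FPKM in shLuciferase. Its deposited locus lies on an alternative haplotype of chromosome 6, and the same reads may also match the main chromosome. RPS3A was at 1879 FPKM in shETS1 and 1553 FPKM in shLuciferase, a log2 ratio of 0.27. RPS6, the protein phosphorylated by the S6 kinases, was at 3132 FPKM in shETS1 and 3157 FPKM in shLuciferase. RPS4X, encoded on the X chromosome, was at 2207 FPKM in shETS1 and 2204 FPKM in shLuciferase.

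Of 16 listed genes known to be mutated in Diamond-Blackfan anaemia, an inherited failure of red cell production, 15 had a row and were tested. Of these, 11 were above 0 and the median log2 ratio was 0.07, close to that of all members. RPS19, the gene most often mutated in that disease, was at 2663 FPKM in shETS1 and 2722 FPKM in shLuciferase. RPS29, whose deposited locus overlaps those of RPL36AL and other genes, was at 4087 FPKM in shETS1 and 3643 FPKM in shLuciferase.

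Some members were listed far below the rest. RPSA, which also has been described as a precursor of a laminin receptor, was at 40.2 FPKM in shETS1 and 50.6 FPKM in shLuciferase. RPL9 was at 172 FPKM in shETS1 and 146 FPKM in shLuciferase, but its deposited locus lies on chromosome X (23851465 to 23926057, hg19) and overlaps APOO, whereas RefSeq places the gene on chromosome 4. Its value may therefore not describe the RPL9 gene. RPL27A was at 324 FPKM in shETS1 and 307 FPKM in shLuciferase. Ribosomal protein genes have many processed pseudogenes, near-identical copies of their mRNAs, and the authors' treatment of reads with several matches is not given in the sources used here. In GENCODE 29, 75 of the 79 members had at least 1 pseudogene named after them, with a median of 9 and a highest count of 91 for RPL23A. RPSA had 74, RPL22 had 22, RPL9 had 17, RPS23 had 10 and RPL27A had 2. Over the 77 tested members, level and number of pseudogenes had a Spearman rho of -0.26. Log2 ratio and number of pseudogenes had a rho of 0.38 over the same members. The part of shared reads in the low values and in the log2 ratios was not tested.

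The deposited locus of 16 members overlaps that of another gene averaging 1 FPKM or more, and RPL9 and RPS18 have loci off their main chromosomes. These conditions apply to 17 tested members. Without them, 35 of 60 members (58.3%) were above 0 and the median log2 ratio was 0.02, or -7.5e-05 after centring on the median of all tested genes. The 17 had a median of 0.10, and 15 of them were above 0. Because the protocol in the labels describes no step that marks strand, opposite-strand genes at these loci may share reads.

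Of 3 tissue-restricted paralogs, 2 were listed at or near 0. RPL10L, known from testis, was listed at 0 in both groups, and RPL3L, known from muscle, was listed at 0 in shETS1 and at 0.0177 FPKM in shLuciferase. Neither was tested by the authors. RPL39L, a paralog of RPL39 known from testis and from some tumours, was at 565 FPKM in shETS1 and 392.4 FPKM in shLuciferase. Its log2 ratio of 0.53 was the highest of the members, with a p-value of 0.496 in the authors' deposited table. At these levels RPL39L had about 17.5% of the FPKM of RPL39 in shETS1 and 15.4% in shLuciferase.

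Ribosomal proteins and paralogs with other kinds of symbols were examined beside the members. Of 9 listed symbols 8 had a row, all were tested and none was called. With 0.812% of all tested genes called, that count is near the background. FAU, a fusion of RPS30 with a ubiquitin-like protein, was at 1485 FPKM in shETS1 and 1657 FPKM in shLuciferase. GNB2L1, now named RACK1, a scaffold on the small subunit, was at 3588 FPKM in shETS1 and 3785 FPKM in shLuciferase. The log2 ratios of FAU and GNB2L1 were -0.16 and -0.08, within the range of the members.

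Several paralogs had higher values in shETS1. RPL22L1 was at 86.2 FPKM in shETS1 and 61.6 FPKM in shLuciferase, a log2 ratio of 0.48, for which the authors' deposited table gives p = 0.0440 and q = 0.679. RPS27L, a p53-responsive paralog of RPS27, was at 181 FPKM in shETS1 and 136 FPKM in shLuciferase, and the authors' deposited table gives it a q-value of 0.849. RPL26L1 was at 93.2 FPKM in shETS1 and 80.0 FPKM in shLuciferase. RPL7L1 was at 95.0 FPKM in shETS1 and 94.8 FPKM in shLuciferase, and RPL36AL at 1003 FPKM in shETS1 and 954 FPKM in shLuciferase. None of these differences passed the test.

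The log2 ratios of the members were lower where the transcripts were richer in G and C. The median GC content of a member's transcript was 49.9% (GENCODE 29, 77 tested members), against 49.8% for the other tested genes. Some chosen transcripts were far longer than their coding sequence, as for RPL37 (7686 and 291 bases) and RPL27A (4916 and 444 bases). For such members the GC content is mostly that of noncoding sequence. Log2 ratio and GC content had a Spearman rho of -0.58 across the 77 members and -0.47 across 9600 other genes. These are descriptions, since genes share the libraries and are not replicates. The 26 members with the lowest GC content, 42.1% to 47.7%, had a median log2 ratio of 0.13 and 21 were above 0. The 25 in the middle had a median of 0.07 and 20 were above 0. The 26 with the highest GC content, 52.3% to 63.6%, had a median of -0.04 and 9 were above 0. Whether this came from library preparation or from the cells was not tested.

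**Figure D3:**
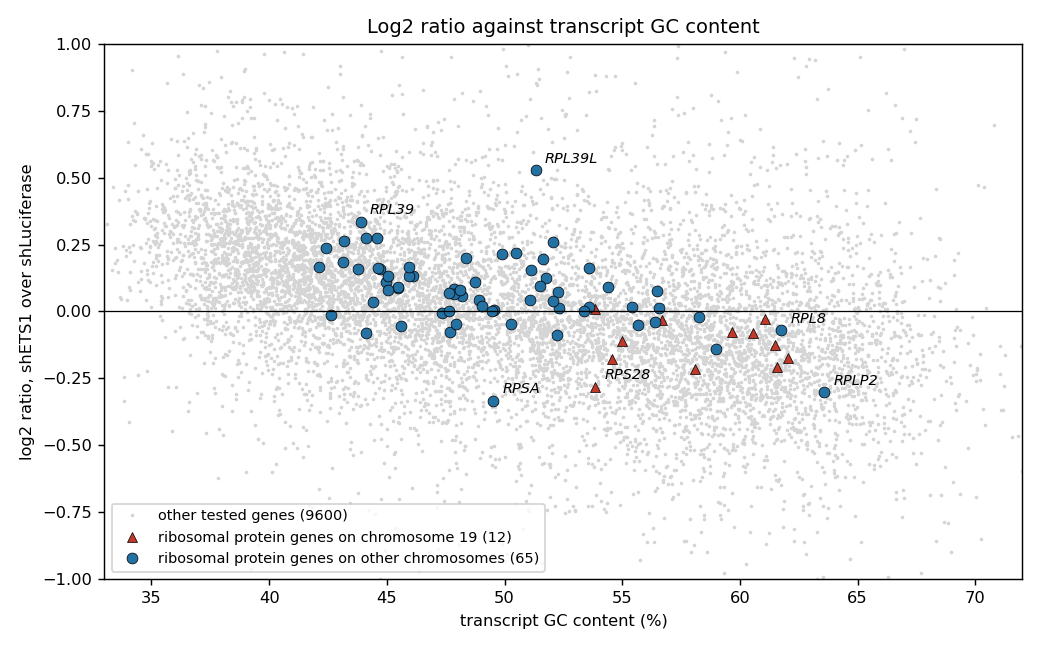
Log2 ratio of the group FPKM values, shETS1 over shLuciferase (vertical axis), against GC content of the transcript in percent (horizontal axis). Red triangles are the 12 ribosomal protein genes on chromosome 19, blue circles the 65 on other chromosomes and grey points other tested genes inside the axes. Members of low GC content lie mostly above 0, and 11 of the 12 on chromosome 19 lie below it.

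Members on chromosome 19, a gene-dense chromosome rich in G and C, were mostly lower in shETS1. Of the 12 tested members on chromosome 19, 11 were below 0 (12 after centring on the median of all tested genes, 10 after rescaling) and RPL13A was above it, at 3616 FPKM in shETS1 and 3598 FPKM in shLuciferase. Their median log2 ratio was -0.12, against 0.08 for the 65 members elsewhere. Chromosome 19 as a whole also had a median of -0.12 over 716 tested genes with a mean of at least 1 FPKM, where 224 were above 0. The other chromosomes had a median of 0.03. The median GC content of the 12 members was 58.9%, against 48.7% for the other 65. The parts of position and of base composition in this difference were not tested.

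The promoters were searched for the ETS recognition sequence, in the 300 bases from 250 before to 50 after each annotated start. CCGGAAG on either strand was found in 22 of 63 members (34.9%), against 12.2% of all 27305 symbols and 23.3% of the 7745 other tested genes with an entry that averaged 1 FPKM or more. The reverse complement of this motif can overlap a TOP tract, and other ETS factors share it. In the 22 tested members with the motif the median log2 ratio was 0.04 and 17 were above 0. In the 40 tested members without it the median was also 0.04, and 24 were above 0. Over all tested genes that averaged 1 FPKM or more, 1035 of 1825 with the motif (56.7%) and 3067 of 5982 without it (51.3%) were above 0. A match is a description and not a bound site.

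The longer sequence ACCGGAAGT was found in 3 of 63 members and in 327 of 27305 symbols. The sequence stands in capitals here, within 30 bases 5′ to 3′ on the strand of the gene (RefSeq, GRCh38.p14), for each of the 3 members. In RPL19 it is present as its reverse complement.
RPS18: agaaaggcgcACCGGAAGTtgtggtaccca (chr6:33271927-33271956, plus strand)
RPL27A: ggcctctgtgACCGGAAGTgaggcgttttg (chr11:8682716-8682745, plus strand)
RPL19: ACTTCCGGTtacagataaccacgtgattgg (chr17:39200033-39200062, plus strand)
It begins 138 bases before the start in RPS18 and 66 in RPL27A. In RPL19 it lies in the reverse orientation at the far edge of the window, 250 bases before the start. RPL19 was at 3705 FPKM in shETS1 and 3662 FPKM in shLuciferase. The log2 ratios of RPS18, RPL27A and RPL19 were 0.26, 0.08 and 0.02. Of all 202 tested genes with this sequence that averaged 1 FPKM or more, 128 (63.4%) were above 0.

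Members with and without a TOP start had similar log2 ratios, a difference that was not tested. The 46 tested members with one had a median log2 ratio of 0.05 and the 16 without one a median of 0.02. Over all tested genes that averaged 1 FPKM or more and had a promoter entry, the 617 with a TOP start had a median of 0.03 and the 7190 without a median of 0.01. The other transcripts known to carry a TOP tract included 17 tested genes of 20 listed, none of them called, against 0.812% of all tested genes. EEF1A1, the elongation factor that delivers aminoacyl-tRNA, was at 6103 FPKM in shETS1 and 4803 FPKM in shLuciferase. EEF2, the translocation factor, was at 911 FPKM in shETS1 and 1145 FPKM in shLuciferase, and the histone chaperone NAP1L1 at 383 FPKM in shETS1 and 318 FPKM in shLuciferase. The log2 ratios of these 3 were 0.35, -0.33 and 0.27, the largest in size on the list, and the list's median was 0.03 with 10 of 17 above 0.

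The genes that make and control ribosomes were taken as 4 lists, none with a called gene. With 0.812% of all tested genes called, a count of 0 in lists of this size is near the background. Of 28 ribosome biogenesis factors 27 were tested, 8 were above 0 and the median log2 ratio was -0.05. NOB1, the nuclease that finishes the small subunit RNA, was at 77.3 FPKM in shETS1 and 105 FPKM in shLuciferase, with a p-value of 0.0622 in the authors' deposited table. RRS1, which helps load the 5S particle, was at 91.3 FPKM in shETS1 and 116 FPKM in shLuciferase, and PES1, needed for the large subunit, at 101 FPKM in shETS1 and 122 FPKM in shLuciferase.

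The 11 genes of RNA polymerase I and its factors had a median log2 ratio of -0.21 and 4 were above 0. The polymerase subunit gene POLR1D was at 69.7 FPKM in shETS1 and 88.9 FPKM in shLuciferase, POLR1B at 8.11 FPKM in shETS1 and 9.96 FPKM in shLuciferase, and the initiation factor gene TAF1C at 11.8 FPKM in shETS1 and 14.2 FPKM in shLuciferase. None had an unadjusted p under 0.05, against 6.94% of all tested genes, and 3 of the 11 (27.3%) differed by at least 1.2-fold, against 34.0% of the 10676 genes averaging 1 FPKM or more. Of 11 chaperones of nascent proteins in general or of free ribosomal proteins, 5 were above 0. The 11 had a median of -0.01, or 0.015 after rescaling each group to the same FPKM sum. PDCD2, a chaperone of RPS2, was at 39.9 FPKM in shETS1 and 50.6 FPKM in shLuciferase. GRWD1, a chaperone of RPL3, was at 32.0 FPKM in shETS1 and 37.5 FPKM in shLuciferase. NAP1L1, which is also on this list, was higher in shETS1 with a log2 ratio of 0.27.

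Of 20 regulators of ribosomal protein synthesis, all tested, 7 were above 0 and the median log2 ratio was -0.04. EIF4E, which binds the mRNA cap, was at 15.9 FPKM in shETS1 and 11.3 FPKM in shLuciferase, for which the authors' deposited table gives p = 0.0468 and q = 0.698. RPTOR, the scaffold of mTOR complex 1, was at 18.4 FPKM in shETS1 and 24.6 FPKM in shLuciferase, and the kinase gene RPS6KA1 at 9.17 FPKM in shETS1 and 11.97 FPKM in shLuciferase. MYC, a transcription factor that drives ribosome production, was at 183 FPKM in shETS1 and 185 FPKM in shLuciferase, and the TOP regulator LARP1 at 54.6 FPKM in shETS1 and 67.2 FPKM in shLuciferase. GABPA, the ETS factor of many housekeeping promoters, was at 4.11 FPKM in shETS1 and 3.29 FPKM in shLuciferase. MYC, LARP1 and GABPA are named for their roles and were chosen after their values were seen.

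**Figure D4:**
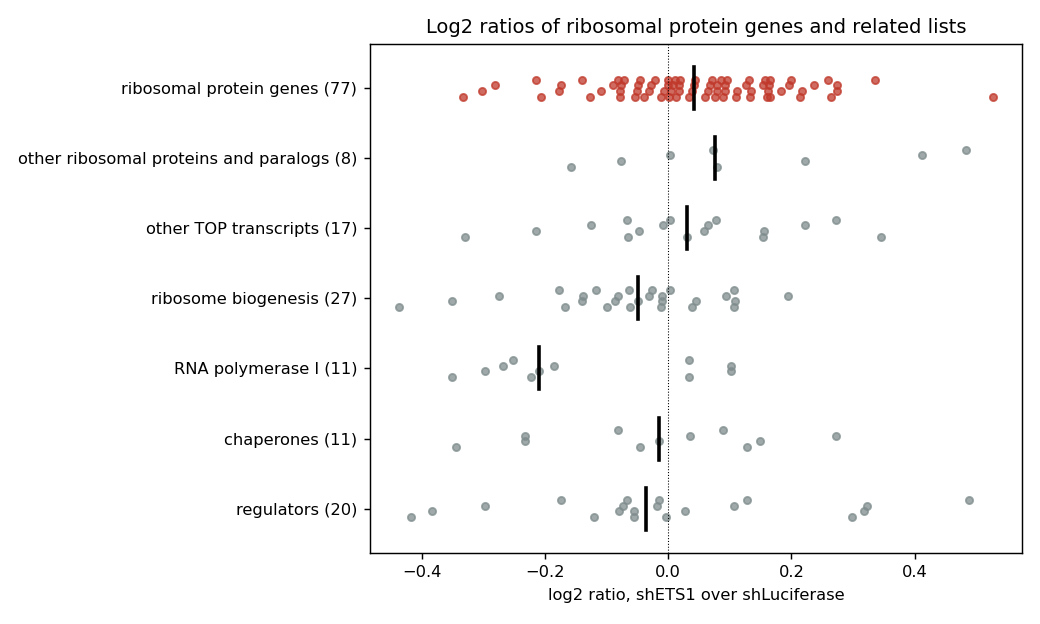
Log2 ratio of the group FPKM values, shETS1 over shLuciferase (horizontal axis), of each tested gene in the ribosomal protein genes (red, top row) and in 6 related lists (grey), with the number of tested genes in parentheses. Vertical black bars are medians, 0.04 for the ribosomal protein genes and -0.21 for the RNA polymerase I genes. NAP1L1 is on 2 of the lists.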

How the data were processed

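RNA was measured by sequencing of poly(A)-selected RNA from 3 shETS1 and 3 shLuciferase samples, per the labels' protocols. The submitters' processing notes name TopHat2 2.0.7, Bowtie2 2.0.6, SAMtools 0.1.18, Cufflinks 2.1.1 and hg19, without their roles. The authors deposited 1 FPKM value per gene and group, with its log2 fold change, test score, p-value and q-value. No values per sample were at hand, so depth is unknown and the planned count or limma tests did not apply. The deposited p-values and q-values were used unchanged. Log2 ratios of shETS1 over shLuciferase were recomputed from the FPKM values, with no pseudocount, for tested genes with a mean of at least 1 FPKM. The deposited loci (hg19) had 1 added to the start. Transcript GC content and pseudogenes came from GENCODE 29 by symbol (principal APPRIS transcript, then basic tag, longest coding sequence, support level and shortest length). Promoters came from the RefSeq GRCh38.p14 table. Scripts used Python 3.11.15, numpy 2.4.6, pandas 2.3.3, scipy 1.17.1 and matplotlib 3.10.9 and were tested on simulated data.

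Genes named were ETS1, members with an unadjusted p under 0.05, the 5 highest and 5 lowest by mean, the 8 highest and 8 lowest by ratio, untested members, the stalk, 5S and tissue-restricted genes, ribosomal proteins with other symbols, and the 3 largest differences of each other list among tested genes with a mean of at least 5 FPKM. Other members were added for their roles after their values were seen. The members and lists were chosen with earlier results of these data known. Alternatives were 2 pseudocounts, 2 level filters, rescaling, centring, a q-value limit of 0.10, recomputed Benjamini-Hochberg values and leaving out members of uncertain locus. Some genes that this rule names are not reported here by name, and they remain in the counts and medians.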

Additional observations from a re-analysis of the deposited data

How the results depend on the processing

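No member was called under any alternative tried, but these alternatives could not have changed that count. Calls rested on the deposited q-values, which pseudocounts, rescaling, centring, level filters and leaving out members do not alter. Recomputed Benjamini-Hochberg values differed from the deposited q-values by at most 5.2e-07. The smallest deposited q-value of any member was 0.978, for RPSA, far above both q-value limits. The unchanged count is therefore not a test of robustness. The share of members above 0 ranged from 57.1% when centred on the median of all tested genes to 71.4% when each group was rescaled to the same FPKM sum. The median log2 ratio ranged from 0.02 to 0.07 with 1 choice changed at a time. Leaving out members of uncertain locus and centring together, a pair chosen after seeing the data, gave -7.5e-05. Without members of uncertain locus the difference in share of summed FPKM was 0.424 percentage points, and over tested genes only, an alternative chosen after seeing the data, 0.671. Rescaling turned the log2 ratio of RPL35 to 0.0076 and of RPL41 to 0.029, and centring turned that of RPLP0 to -0.015 and of RPL7L1 to -0.012. Among the other genes named, rescaling turned RPS6 to 0.017 and MYC to 0.013, and centring turned RPS4X to -0.013 and RPL13A to -0.0079. These genes had near-equal values in the groups, and the FPKM sums over all genes differed by -0.03 on the log2 scale. VIM, listed with a value in shLuciferase alone, is part of that difference, so rescaling raised the ratios partly through this listing. Over tested genes only, the sums were 726966 in shETS1 and 734495 in shLuciferase, a smaller difference. Rescaling to those sums was not run. No paired analysis was possible because the deposited table holds 1 value per group, and leaving out each replicate was not run for the same reason. Without depth, no counting interval can be given.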
